A study of Mus musculus with 7 samples.

Results

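The genes described here are the 10 that make, store, break down and sense serotonin in the islet: TPH1, TPH2, DDC, SLC18A1, SLC18A2, MAOA, MAOB, HTR2B, HTR1D and HTR3A. They were chosen by name, as the synthesis enzymes, the vesicle transporters, the breakdown enzymes and 3 receptors, and they are 10 of the 34082 gene names measured. Islet RNA was sequenced from 7 C57BL/6 females on day 15 of pregnancy, labelled 3 to 4 months old and mated with wild type males. In 4 of them, the βPrlR+/- mice, the labels and methods say that the prolactin receptor gene Prlr was deleted in β cells by a Pdx1 promoter-driven CreER recombinase that was switched on with oral tamoxifen. The other 3, the Prlr+/- mice, carried a global heterozygous deletion, without Cre or tamoxifen. CkoWt, the title of the 4 βPrlR+/- mice, is not explained in the sources used here. For the conditional deletion the sources differ, with homozygous in the series text and heterozygous in the paper. Whether the Wt in that title stands for wild type is not settled by these sources. The labels name a knock-out tissue for both groups, so every difference below is between 2 groups labelled as deletions. Cre, tamoxifen and genotype cannot be told apart. Each library came from the hand-picked islets of 1 mouse, cultured overnight. The values are transcript abundances corrected for length and library total (TPM), divided by a size factor for each mouse and called scaled TPM, and they are given in the order of the mouse numbers.

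Serotonin is made from tryptophan. Tryptophan hydroxylase, TPH1 or TPH2, adds a hydroxyl group in the rate-limiting step, and the decarboxylase DDC turns the product into serotonin. The vesicular monoamine transporters SLC18A1 (VMAT1) and SLC18A2 (VMAT2) load it into secretory granules, and the monoamine oxidases MAOA and MAOB, on the outer mitochondrial membrane, break it down. Islet serotonin is best known from pregnancy: lactogens acting through the prolactin receptor and STAT5 raise tryptophan hydroxylase in rodent β cells, and serotonin then acts through HTR2B on β-cell proliferation and through the ion channel HTR3A on insulin secretion, while HTR1D is a G protein-coupled receptor that couples to Gi.

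The mice were first compared for the targeted gene. PRLR was at 55.7, 38.4, 47.3 and 38.8 scaled TPM in βPrlR+/- mice 1 to 4 and at 36.1, 51.1 and 35.1 in Prlr+/- mice 1 to 3. The groups overlapped, with means of 45.0 ± 8.18 (SD, n = 4) and 40.7 ± 8.96 (SD, n = 3). The log2 fold change, Prlr+/- over βPrlR+/- on log2(scaled TPM + 1) throughout, was -0.15 (95% interval -0.55 to 0.26, limma adjusted p = 0.9999). Both groups are labelled as carrying a deletion, so this does not show how much PRLR either one lost. The islets were rich in β-cell RNA: the insulin genes took 52.7%, 53.2%, 46.1% and 53.1% of the TPM of the βPrlR+/- mice, and 56.6%, 54.0% and 58.9% of that of the Prlr+/- mice. All Prlr+/- mice had the higher share, and its part in the differences described here was not tested. Acinar markers varied widely in both groups, with a sum of 2317 to 19980 scaled TPM over the βPrlR+/- mice and 6206 to 16600 over the Prlr+/- mice. Of the markers of mast cells and platelets, which can carry serotonin of their own, mast cell Tpsab1 and FCER1A were listed at 0 in all 7 mice, CPA3 was at most 0.0382 scaled TPM and the platelet gene PF4 at most 0.585. Of the same lists, KIT, the most abundant mast cell marker, was at 1.64 to 3.36, HDC at 0.926 to 2.73 and the platelet gene GP9 at up to 0.863. The summed mast cell markers were at 3.18 to 5.79 scaled TPM over the βPrlR+/- mice and 2.59 to 4.61 over the Prlr+/- mice.

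**Figure D1:**
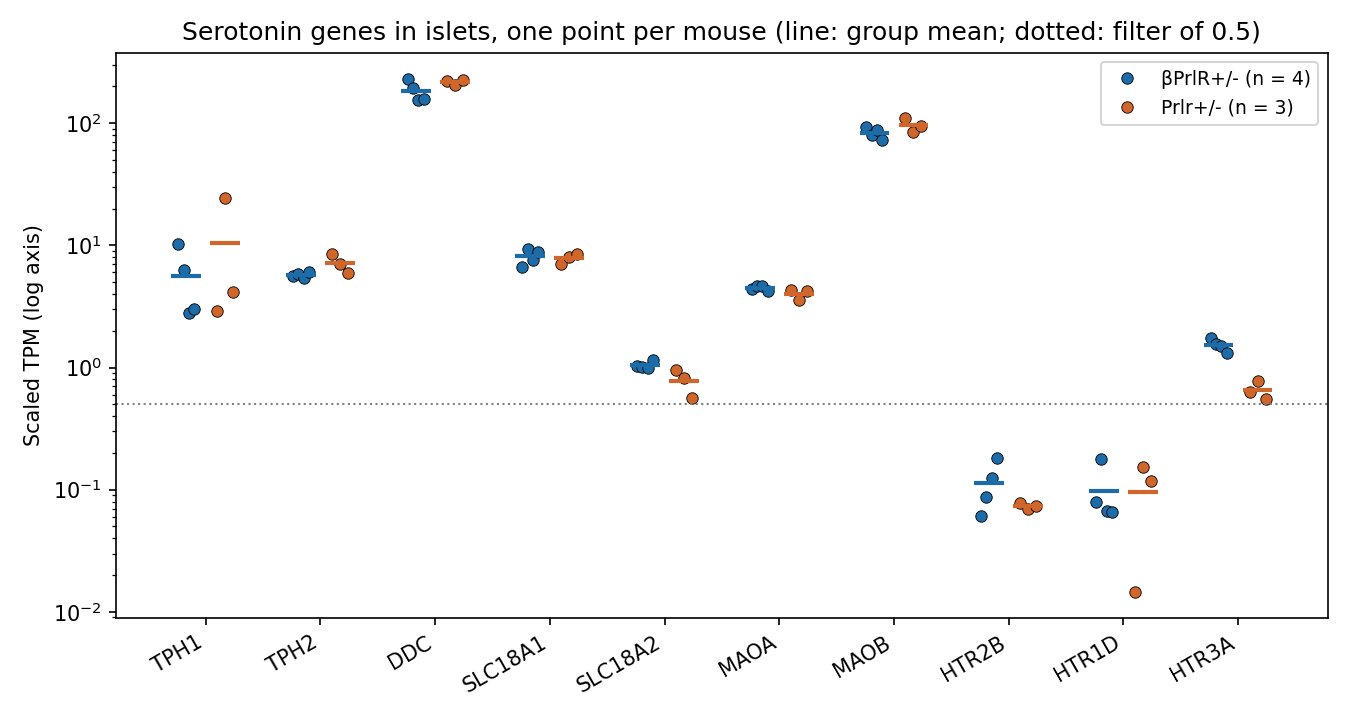
Scaled TPM (log axis) of the 10 serotonin genes, 1 point per mouse, in 4 βPrlR+/- mice and 3 Prlr+/- mice, with a line at each group mean and a dotted line at the filter value of 0.5, which was applied to mean TPM. DDC and MAOB lie far above the other genes, HTR2B and HTR1D lie near 0.1, and the points of HTR3A and SLC18A2 do not overlap between the groups.

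The members' levels spanned a wide range. Over all 7 mice, mean scaled TPM, a measure corrected for transcript length, fell in the order DDC (199), MAOB (89.4), SLC18A1 (8.02), TPH1 (7.70), TPH2 (6.35), MAOA (4.28), HTR3A (1.15), SLC18A2 (0.933), HTR1D (0.0963) and HTR2B (0.0961). Neighbours with overlapping ranges were SLC18A1 and TPH1, TPH1 and TPH2, HTR3A and SLC18A2, and HTR1D and HTR2B, so their order is not separated from the spread between mice. In all 7 mice DDC was above MAOB, MAOB above SLC18A1, TPH2 above MAOA, and SLC18A2 above HTR1D.

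Of the 10 members, 8 reached the filter, a mean TPM of 0.5, and were tested in limma. No member passed an adjusted p of 0.05 in limma, against 10 of 14840 genes (0.0674%). At an unadjusted p under 0.05, 2 of the 8 members passed, TPH2 higher and HTR3A lower in the Prlr+/- mice, against 4.52% of all genes tested. The groups did not overlap for 2 of the 8, HTR3A and SLC18A2, both lower in the Prlr+/- mice, against 4.95% of all genes tested. Among the 8, 4 had a positive and 4 a negative fold change, with a median of 0.08, beside 0.0042 over all genes tested. In RNA from whole islets, fewer cells of a type and less RNA per cell cannot be told apart.

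RefSeq places TPH1 starts at 2 sites on the minus strand of chromosome 7 (GRCm38.p6), and TPH2 has 1 on chromosome 10. They are given because nearly all TPM on curated TPH1 transcripts, described below, lay on 2 that begin at or near the downstream start. The 250 bases before each start follow, 5′ to 3′ on the minus strand, with the letters TGACG (or CGTCA, the same on the other strand) in capitals. TGACG is part of the cyclic AMP response element, and this motif was chosen after the sequences were seen.
TPH1 upstream start, chr7:46672538-46672787: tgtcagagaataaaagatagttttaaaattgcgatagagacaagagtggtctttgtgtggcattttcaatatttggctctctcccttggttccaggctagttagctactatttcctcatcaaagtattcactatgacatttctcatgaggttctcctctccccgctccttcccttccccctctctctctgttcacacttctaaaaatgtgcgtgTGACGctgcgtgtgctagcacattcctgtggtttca
TPH1 downstream start, chr7:46667378-46667627: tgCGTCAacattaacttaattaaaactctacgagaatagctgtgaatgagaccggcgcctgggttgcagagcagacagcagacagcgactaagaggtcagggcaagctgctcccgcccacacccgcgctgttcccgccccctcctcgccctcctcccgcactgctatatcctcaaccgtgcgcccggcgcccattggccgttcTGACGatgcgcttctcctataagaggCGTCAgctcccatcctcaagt
TPH2, chr10:115185023-115185272: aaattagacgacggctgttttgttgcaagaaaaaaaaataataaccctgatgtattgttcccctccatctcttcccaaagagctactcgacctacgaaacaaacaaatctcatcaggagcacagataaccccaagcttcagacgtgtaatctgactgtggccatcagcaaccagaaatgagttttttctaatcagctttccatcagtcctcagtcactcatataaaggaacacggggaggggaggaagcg

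The TPH1 sites differed in composition. The downstream sequence had 58.8% G and C and the upstream one 43.6%, as did TPH2, beside a median of 52.4% over 32851 promoters. TGACG on either strand occurred 3 times before the downstream start, beginning 248, 47 and 21 bases before it, and once, 36 bases before it, at the upstream start, and was not among the letters of TPH2. Of all promoter windows of this length, 17.8% held TGACG at least once and 0.688% held it 3 or more times. The whole element, TGACGTCA, and the STAT motif TTCNNNGAA were in none of the 3 windows, and 1.55% and 7.02% of all windows held them, searched on both strands. TPH2 held TATAAA, which 12.4% of all windows have. Letters alone do not show that a factor binds. The table held promoters of 7 of the 10 members, and these were searched in the same way. MAOA also held TGACG, 209 bases before its start, and a DDC window also held TATAAA. The windows of HTR2B, HTR1D and SLC18A2 held none of these motifs.

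The hydroxylases come first in synthesis, and TPH1 was the more variable of the pair. TPH1 was at 10.2, 6.30, 2.77 and 3.03 scaled TPM in βPrlR+/- mice 1 to 4 and at 2.89, 24.6 and 4.15 in Prlr+/- mice 1 to 3. One Prlr+/- mouse stood above every other mouse, 2.42-fold above the next, βPrlR+/- mouse 1, and the other Prlr+/- mice lay within the range of the βPrlR+/- mice. The means were 5.57 ± 3.47 (SD, n = 4) and 10.5 ± 12.2 (SD, n = 3), and the log2 fold change was 0.43 with an SE of 0.69 (95% interval -1.18 to 2.04, limma adjusted p = 0.9999, exact two-sided permutation p = 0.686). Without Prlr+/- mouse 2 the fold change turned to -0.41. TPH1 was more variable between mice than 97.8% of the genes tested, ranked by the SD of their log2 values. In Prlr+/- mouse 2, 50 of the 14840 genes tested (0.337%) were more than 2-fold above every other mouse, and in each other mouse 3 to 34 were. TPH1 was 19th among the 50 by that ratio, and many of the 50 are microRNA or small nucleolar RNA genes. Of the 9001 genes that averaged 5 TPM or more, 15 were more than 2-fold above every other mouse in Prlr+/- mouse 2.

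TPH2, the hydroxylase better known from serotonin neurons, was steadier. It was at 5.62, 5.81, 5.37 and 6.10 scaled TPM across the βPrlR+/- group and at 8.51, 7.05 and 5.99 across the Prlr+/- group. The lowest Prlr+/- mouse lay just inside the other group's range. The log2 fold change of 0.27 (95% interval 0.02 to 0.52) had an unadjusted limma p of 0.0361, an adjusted p of 0.9999 and an exact two-sided permutation p of 0.0571. So TPH2 was not separated between the groups once all genes were counted. With TPM as deposited the unadjusted p was 0.312, and in 5 of the 7 fits that leave out 1 mouse it was above 0.05. Prlr+/- mouse 2, highest in TPH1, was not highest in TPH2.

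TPH1 held 25.3% of the summed hydroxylase TPM in Prlr+/- mouse 1 and 77.7% in Prlr+/- mouse 2, and between 33.2% and 64.4% in the other mice. It exceeded TPH2 in 3 of 7 mice. The summed TPH1 and TPH2 level was 11.3 ± 3.45 scaled TPM (SD, n = 4) in the βPrlR+/- mice and 17.7 ± 12.1 (SD, n = 3) in the Prlr+/- mice, and 31.7 in Prlr+/- mouse 2 alone. Across the 7 mice the 2 hydroxylases had a Pearson r of 0.059 (exact permutation p = 0.890, adjusted over 2 relations 0.890) and a Spearman rho of 0.107 (exact permutation p = 0.840, adjusted 0.840). Leaving out the 2 mice farthest from the median of TPH2, Prlr+/- mice 1 and 2, gave r = -0.10.

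TPH1 was also set beside PRLR in each mouse. Their Pearson r was 0.643 (exact permutation p = 0.118, adjusted over 2 relations 0.236), and their Spearman rho was 0.429 (exact permutation p = 0.354, adjusted 0.707). With βPrlR+/- mouse 1 and Prlr+/- mouse 2 left out, the mice farthest from the median of PRLR, r was -0.33, so the positive value rests on those 2 mice, which also had the highest TPH1. Leaving out 1 mouse at a time gave r of 0.555 to 0.815. With both measures centred within each group, r over the 7 mice was 0.766. Within a group there are too few mice for a correlation.

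**Figure D2:**
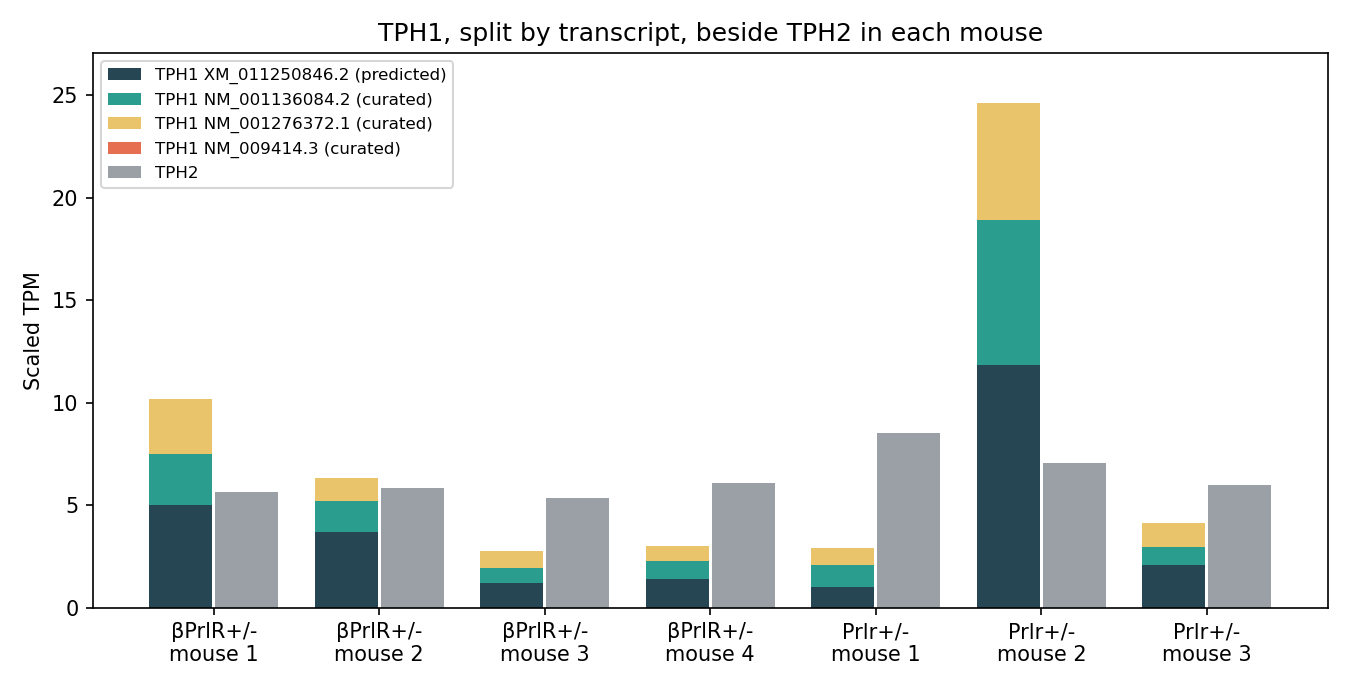
Scaled TPM of TPH1 in each of the 7 mice, stacked by the RefSeq transcript it was assigned to, beside TPH2 (grey). Prlr+/- mouse 2 is high in the 3 main TPH1 transcripts together, at 24.6 in all, and TPH2 stays between 5.37 and 8.51.

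TPH1 was divided among 4 transcripts. The predicted transcript XM_011250846.2 held 48.7% of its summed TPM over the 7 mice, NM_001136084.2 held 27.0% and NM_001276372.1 held 24.2%. NM_009414.3, the transcript from the upstream start, held 0.0845% and was listed at 0 in 6 of 7 mice. In the GENCODE annotation of GRCm38, NM_001136084.2 (1762 bases, 11 exons, 1341 coding bases) starts at the downstream site, 5160 bases from the upstream start, and the short NM_001276372.1 (578 bases, 4 exons) starts 5194 bases from it. NM_009414.3 has the same coding length and is 4562 bases long. The start of the predicted transcript, the one with the highest share, was not analysed here, so the start is known only for the TPM on curated transcripts, nearly all of which lay on the 2 that begin at or near the downstream site. In Prlr+/- mouse 2 the shares were 48.2%, 28.7% and 23.2%, each within the range of the other mice, so the high level was not that of 1 transcript.

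The 5 genes whose levels followed TPH1 most closely across the 7 mice, among 9000 that averaged 5 TPM or more, were INA, SLC39A13, CCDC97, TNFAIP1 and UBQLN4, with Pearson r on log2(scaled TPM + 1) of 0.992, 0.984, 0.982, 0.980 and 0.980. INA, which encodes the neurofilament protein α-internexin, was at 21.5 scaled TPM in Prlr+/- mouse 2 and at 12.1 to 17.2 in the other mice.

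DDC, which acts after the hydroxylases, was the most abundant member. It was at 232, 195, 156 and 157 scaled TPM across the βPrlR+/- group and at 223, 206 and 226 across the Prlr+/- group. The Prlr+/- mice lay close together, inside the upper part of the βPrlR+/- range. The log2 fold change was 0.26 (95% interval -0.08 to 0.60, limma adjusted p = 0.9999, exact two-sided permutation p = 0.229). DDC was above the summed hydroxylases by 6.50-fold in Prlr+/- mouse 2 and by 14.7-fold to 22.3-fold in the other mice. Most DDC was assigned to 1 predicted transcript, XM_006514489.2, with 87.1% of its TPM.

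The vesicle transporters were led by SLC18A1. It was at 6.62, 9.41, 7.60 and 8.88 scaled TPM across the βPrlR+/- group and at 7.10, 7.97 and 8.53 across the Prlr+/- group. All 3 Prlr+/- mice lay inside the other group's range, and the log2 fold change was -0.03 (95% interval -0.31 to 0.25, limma adjusted p = 0.9999, exact two-sided permutation p = 0.857). SLC18A2 was much lower. It was at 1.02, 1.01, 0.992 and 1.16 across the βPrlR+/- group and at 0.955, 0.815 and 0.568 across the Prlr+/- group. Every Prlr+/- mouse was below every βPrlR+/- mouse, by a narrow margin. The group means were 1.048 ± 0.0771 (SD, n = 4) and 0.779 ± 0.196 (SD, n = 3), in a ratio of 0.743, and the log2 fold change was -0.21 (SE 0.10, 95% interval -0.44 to 0.02), or -0.41 with a pseudocount of 0.1. The exact two-sided permutation p was 0.0286, the smallest that 7 mice split 4 against 3 allow, and the limma unadjusted and adjusted p were 0.0695 and 0.9999. Nearly all SLC18A1 was on NM_153054.2, with 98.5% of its TPM. SLC18A1 made up 86.6% to 93.8% of the summed transporter TPM.

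Of the breakdown enzymes, MAOB had far more transcript than MAOA. MAOB was at 93.2, 80.2, 88.6 and 73.5 scaled TPM across the βPrlR+/- group and at 110.2, 84.8 and 95.6 across the Prlr+/- group, with overlap, and its log2 fold change was 0.20 (95% interval -0.06 to 0.47, limma adjusted p = 0.9999, exact two-sided permutation p = 0.171). MAOA, the form with the higher affinity for serotonin, was at 4.36, 4.61, 4.68 and 4.24 across the βPrlR+/- group and at 4.30, 3.58 and 4.19 across the Prlr+/- group. Its groups overlapped too, with a log2 fold change of -0.13 (95% interval -0.30 to 0.05, limma adjusted p = 0.9999, exact two-sided permutation p = 0.0857). As a share of the summed MAOA and MAOB TPM, MAOA was at 4.47%, 5.43%, 5.02% and 5.46% across the βPrlR+/- group and at 3.75%, 4.05% and 4.20% in the Prlr+/- mice. The shares of the groups did not overlap. The share is given as a description, without a test.

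The receptors were scarce in these islets. HTR3A, the subunit that forms the serotonin-gated cation channel, was at 1.75, 1.55, 1.49 and 1.32 scaled TPM across the βPrlR+/- group and at 0.631, 0.770 and 0.549 across the Prlr+/- group. All Prlr+/- mice were below all βPrlR+/- mice, and the gap between the groups was wider than the range within either. HTR3A averaged 1.53 ± 0.175 (SD, n = 4) against 0.650 ± 0.112 (SD, n = 3), in a ratio of 0.425. On the log2 scale with the pseudocount, which understates the change of a gene this low, the fold change was -0.62 (SE 0.09, 95% interval -0.83 to -0.40), and with a pseudocount of 0.1 it was -1.12. The unadjusted limma p was 2.2e-04, 24th of the 14840 genes, and the adjusted p was 0.135, which does not pass. The exact two-sided permutation p was 0.0286, the smallest possible. HTR3A is in the study's own list of differing genes, picked from these mice, and the text of the study is not uniform on this gene, so its direction is not independent evidence.

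The deposited transcripts also say which form of HTR3A was counted. NM_001099644.1 held 93.7% of its TPM, and NM_013561.2 held 2.30%, was listed at 0 in 5 of 7 mice and reached 29.1% in Prlr+/- mouse 1. The forms differ by 18 coding bases, 6 residues, at the start of an exon (chr9:48899991-48900008, minus strand, GRCm38, GENCODE). The sequences around the splice site are printed with these 18 bases in capitals.
HTR3A long form, NM_013561.2: gctcagGTTCTGATCTTCTTCCAGccatgg
HTR3A short form, NM_001099644.1: gctcagccatgg
So the islet signal was almost all the short form, as far as transcripts this low and this alike can be told apart from the deposited values. The short form was at 1.64, 1.33, 1.49 and 1.32 scaled TPM across the βPrlR+/- group and at 0.447, 0.770 and 0.549 across the Prlr+/- group, again without overlap (exact two-sided permutation p = 0.0286).

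Most markers of autonomic neurons were lower in Prlr+/- than in βPrlR+/- mice, as HTR3A was. Of 15 such markers 13 were tested, and 12 had a lower level in the Prlr+/- mice, 12 without overlap between the groups, against 4.95% of all genes tested (ELAVL4, without overlap, was higher, and TH overlapped), with a median log2 fold change of -0.48. Their sum was 128.3 to 143 scaled TPM over the βPrlR+/- group and 96.1 to 109 in the Prlr+/- mice. Of the 15, 11 are in the study's list picked from these mice, among them UCHL1, the most abundant, PHOX2A and PRPH. All 11 were lower at an unadjusted limma p under 0.05 (4.52% of all genes tested passed in either direction), 2 of them at an adjusted p under 0.05. They were listed for differing between these mice, so this count and the 12 without overlap cannot be weighed against the share of all genes. Of the 4 markers outside that list, TH and ELAVL4 were tested. TH had a log2 fold change of -0.12 and a limma adjusted p of 0.9999, and ELAVL4 had 0.27 and an adjusted p of 0.807 (0.00984 before adjustment). DBH was between 0.0173 and 0.259 scaled TPM, with overlap. CHAT was at 0.202 to 0.281 in the βPrlR+/- mice and 0.0776 to 0.129 in the Prlr+/- mice, without overlap. Both were under the filter. The mean log2 level of these 4 markers was 2.24 ± 0.029 (SD, n = 4) in βPrlR+/- and 2.22 ± 0.062 (SD, n = 3) in Prlr+/- mice. Markers of other cell types also leaned to one side. Of those tested, 9 of 11 of β cells had a positive log2 fold change (median 0.29), 5 of 5 of α cells a negative one (median -0.31), as did 4 of 5 of δ and PP cells (median -0.22), 6 of 6 of endothelial cells (median -0.23) and 4 of 5 of Schwann and satellite glia (median -0.32). The summed δ and PP cell markers did not overlap between the groups. They were at 18210 to 21350 scaled TPM over the βPrlR+/- mice and 15770 to 17480 over the Prlr+/- mice. Each of the 5 markers overlapped on its own. The exact permutation p was 0.0286 for their sum and 0.314 for their mean log2 level. This test was run on every marker list, without adjustment. It gave 0.0286 for both measures of the neuron markers, most of them from the study's list, and 0.0857 or more for the other lists. Of gut endocrine markers tested 3 of 3 had a negative log2 fold change (median -0.19), as did 2 of 2 of mast cells (median -0.20) and 1 of 1 of platelets (-0.09). Of macrophage and acinar markers tested, 3 of 4 and 7 of 8 had a positive log2 fold change (medians 0.03 and 0.08). Over all genes tested, 7673 fold changes were positive and 7167 negative. The part of these cell types, and of neurons, in the HTR3A and SLC18A2 differences was not tested. Because HTR3A and the neuron markers separate the mice by group, no correlation with their summed or mean level is given.

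**Figure D3:**
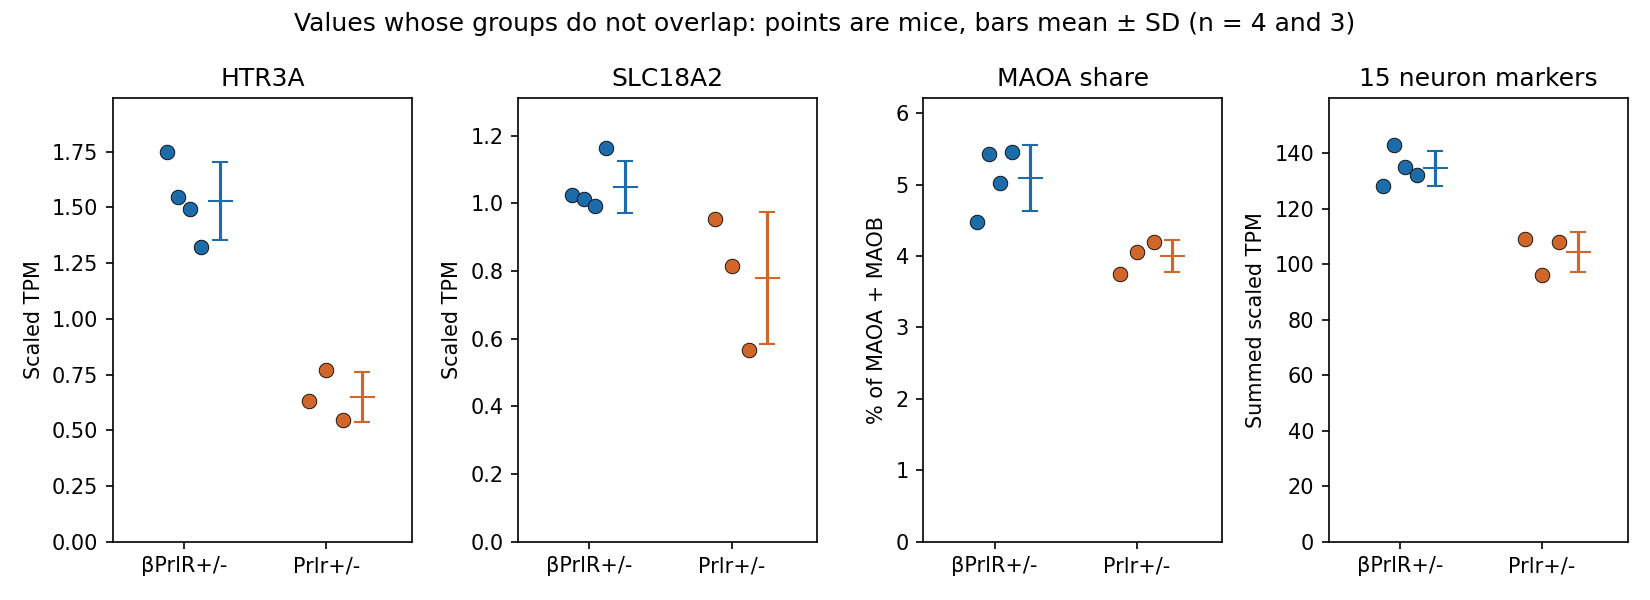
HTR3A and SLC18A2 (scaled TPM), the MAOA share of MAOA and MAOB (%) and the summed scaled TPM of 15 neuron markers, with a point per mouse and bars of mean ± SD, in 4 βPrlR+/- mice and 3 Prlr+/- mice. In each panel all Prlr+/- mice lie below all βPrlR+/- mice, by the widest margin relative to the level in HTR3A, at 0.549 to 0.770 against 1.32 to 1.75.

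Among the 5 genes most like HTR3A across the 7 mice, of 9001, were ESR1, Rnu3b4, STMN2 and ACHE, with Pearson r of 0.974, 0.945, 0.936 and 0.934 on log2(scaled TPM + 1). These 4 separate the groups, as HTR3A does, so each r includes the gap between the groups. It does not show that the levels vary together within a group. All 4 are also in the study's list picked from these mice, and they are a description. ESR1, the oestrogen receptor α gene, was at 57.5 to 90.7 scaled TPM across the βPrlR+/- group and at 0.190 to 0.275 in the Prlr+/- mice, and the CreER recombinase that only the βPrlR+/- mice carry contains part of an oestrogen receptor. The part of the transgene in the ESR1 values was not tested. STMN2 is one of the neuron markers, and ACHE encodes the enzyme that breaks down acetylcholine.

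HTR2B and HTR1D were under the filter and were not tested in limma. Their exact two-sided permutation p were 0.286 and 0.971. HTR2B was at 0.0604, 0.0871, 0.124 and 0.180 scaled TPM across the βPrlR+/- group and at 0.0777, 0.0693 and 0.0738 across the Prlr+/- group. HTR1D was at 0.0786, 0.177, 0.0672 and 0.0651 across the βPrlR+/- group and at 0.0145, 0.153 and 0.118 across the Prlr+/- group. In both genes the groups overlapped, and the transcript that held most of the value differed between mice. Over the 7 mice, HTR2B was split among XM_006529147.2 (39.5%), NM_008311.2 (25.7%), XM_006529145.2 (20.7%) and XM_006529146.2 (14.0%), and HTR1D among XM_006538578.2 (44.5%), NM_001285484.1 (43.6%) and XM_017319986.1 (11.9%). Of 11 further serotonin receptors none passed the filter. HTR1B and HTR3B, the highest of them, had means of 0.149 and 0.0979 for the βPrlR+/- group, and 0.133 and 0.0537 in the Prlr+/- mice, and HTR1A, HTR1F and HTR2C were listed at 0 in all 7 mice. HTR5A is named because of its values. It was at 0.0158 to 0.0231 scaled TPM over the βPrlR+/- mice and at 0 to 0.00711 over the Prlr+/- mice, without overlap, and is a description at a level near 0.

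Around the members, 43 further genes of the pathway were examined and 21 were tested. None passed an adjusted p of 0.05 in limma. At an unadjusted p under 0.05, 1 was higher (GCH1) and 2 were lower (ALDH2 and TGM2) in the Prlr+/- mice, beside 4.52% of all genes. Of the 21, 13 had a positive and 8 a negative fold change, with a median of 0.06, beside 0.0042 over all genes tested.

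Synthesis needs tetrahydrobiopterin, the cofactor of the hydroxylases. All 8 of its genes were tested and 7 had a positive log2 fold change, from 0.01 to 0.26. GCH1, the first and rate-limiting enzyme of its synthesis, was at 59.7, 45.6, 51.5 and 48.2 scaled TPM across the βPrlR+/- group and at 66.7, 56.6 and 60.2 across the Prlr+/- group. Only βPrlR+/- mouse 1 reached into the range of the Prlr+/- mice, and the log2 fold change was 0.26 (95% interval 0.01 to 0.50, limma adjusted p = 0.9999, exact two-sided permutation p = 0.0857). The most abundant, PCBD1 and QDPR, which regenerate the cofactor, had fold changes of 0.06 and 0.15 and unadjusted limma p of 0.509 and 0.163. GCHFR, the feedback regulator of GCH1, had the only negative one, -0.24 (unadjusted p = 0.232).

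Tryptophan enters cells through amino acid transporters. Of 5 genes 4 were tested, and all 4 had a positive fold change, none at an unadjusted limma p under 0.05. SLC3A2, the shared heavy chain of several transporters, had means of 88.3 ± 6.20 (SD, n = 4) and 101.3 ± 12.9 (SD, n = 3) scaled TPM, with a log2 fold change of 0.19, and SLC16A10 means of 64.0 and 66.5 with 0.03. For serotonin re-uptake, the serotonin transporter SLC6A4 averaged 0.103 and 0.0847 scaled TPM, under the filter. SLC29A4, a low-affinity monoamine transporter, averaged 18.8 and 17.8, with a log2 fold change of -0.07, and SLC22A2 averaged 0.113 and 0.123.

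Of the genes that act on serotonin or on the aldehyde formed by the monoamine oxidases, 6 of 8 were tested and 5 had a negative fold change. ALDH2, the mitochondrial aldehyde dehydrogenase, was at 22.2, 19.7, 19.0 and 19.9 scaled TPM across the βPrlR+/- group and at 18.5, 16.1 and 18.1 across the Prlr+/- group, without overlap, with a log2 fold change of -0.19 (limma unadjusted p = 0.0381, adjusted p = 0.9999). TGM2, the transglutaminase that can couple serotonin to proteins, was at 2.93, 2.43, 3.58 and 3.00 across the βPrlR+/- group and at 2.004, 1.86 and 1.98 across the Prlr+/- group. It too did not overlap, and its log2 fold change of -0.43 had an unadjusted limma p of 0.00381 and an adjusted p of 0.607. TGM2 is also in the study's list picked from these mice. ALDH9A1, the most abundant of the group, had 0.16 (unadjusted p = 0.170). Of 6 genes of the kynurenine branch, which takes tryptophan away from serotonin, 2 were tested, AFMID with -0.13 and TDO2 with 0.08, at unadjusted limma p of 0.192 and 0.611.

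**Figure D4:**
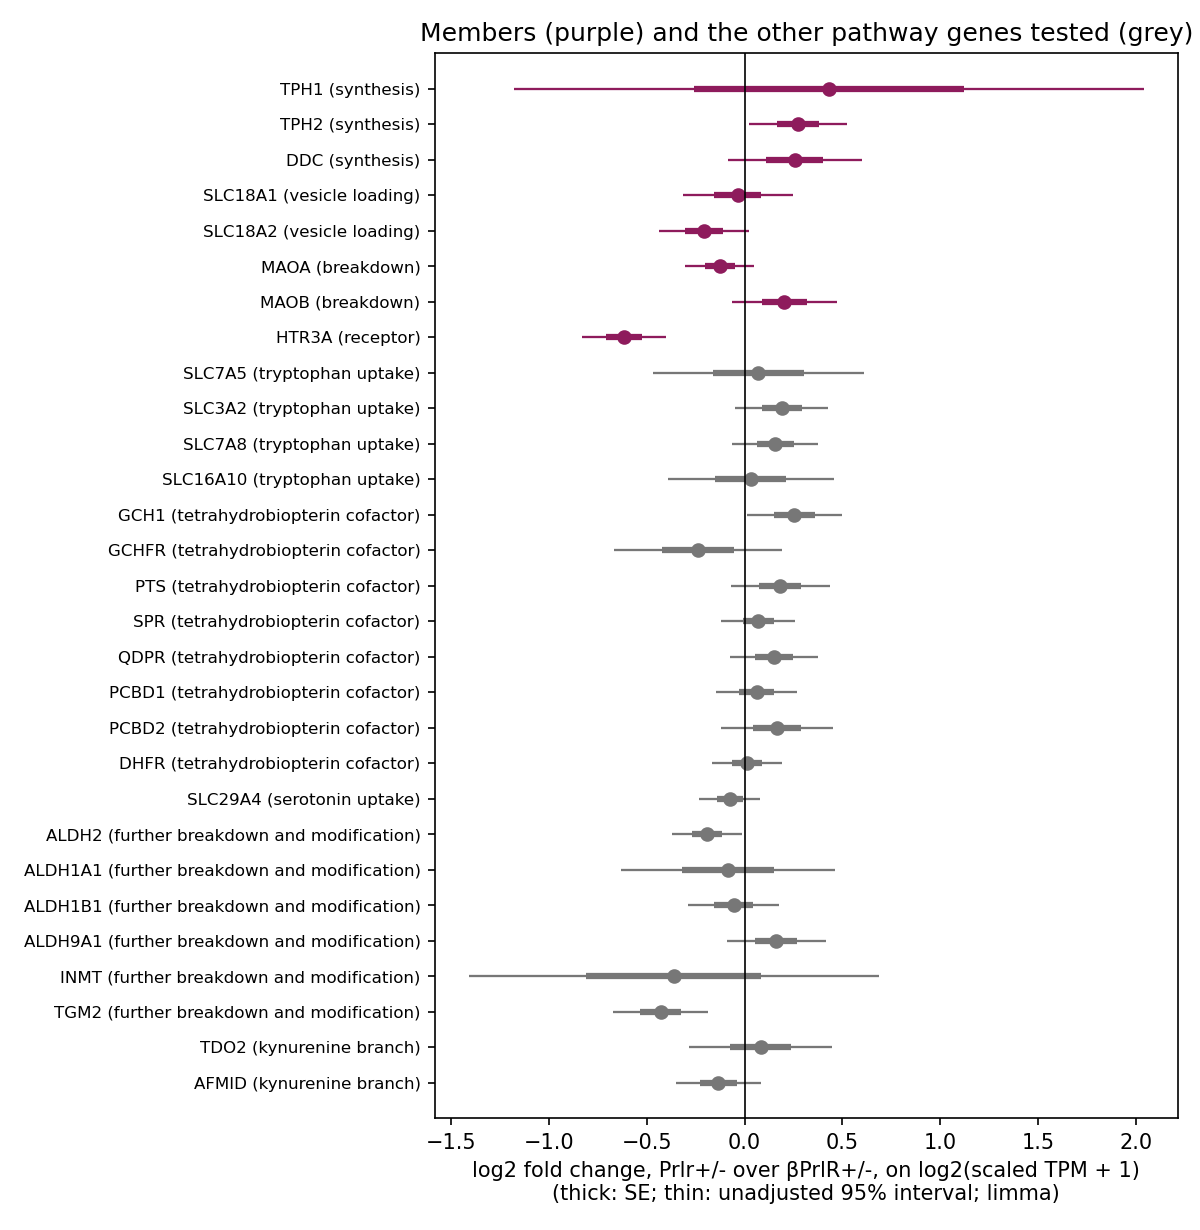
Log2 fold change, Prlr+/- over βPrlR+/-, of the 8 members tested (purple) and 21 further pathway genes tested (grey), with SE (thick lines) and unadjusted 95% interval (thin lines) from limma. HTR3A lies farthest below 0 for its error, at -0.62, and TPH1 has the widest interval, -1.18 to 2.04.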

How the data were processed

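Islet poly(A) RNA from 4 βPrlR+/- and 3 Prlr+/- mice was sequenced with 1 strand-specific library per mouse, so p-values measure the spread between these mice. The authors assigned reads to mouse RefSeq transcripts with kallisto (0.42.4, submitters' processing notes) and deposited values that the methods call FPKM. These sum to 1000000 in each mouse and were handled as deposited TPM, in 107384 transcripts and 34082 genes. No genome build is given in the sources used here. TPM keeps no depth, so the reads behind a value cannot be recovered from it and no counting interval is given; the methods state only the reads per library. Values were divided by median-ratio size factors of 0.883 to 1.11. The 14840 genes whose TPM averaged 0.5 or more entered limma 3.58.1 (R 4.3.3), with trend, on log2(scaled TPM + 1). Benjamini-Hochberg adjustment and a threshold of 0.05 were used. The study's own test, Sleuth, needs values that were not used here. Single genes were also compared with an exact permutation test of the absolute difference of mean log2 values over all 35 splits. Named were all members, the 2 highest genes of each pathway role, those with an unadjusted p under 0.05, the 5 genes most like TPH1 and HTR3A that averaged at least 5 TPM, the most abundant and defining markers (done for neurons, mast cells and platelets, the other lists being summarised), and transcripts with at least 10% of a member that has several; others (NM_009414.3, NM_013561.2, GCHFR, HTR5A, SLC6A4, further markers) were added after their values were seen, and 1 gene that the rule names is not reported here. The members and lists were chosen with earlier results of these data known. Promoters are from RefSeq (GRCm38.p6) and the transcript models from GENCODE M21. Alternatives were other scalings, pseudocounts and filters, a robust fit, 1 transcript per gene, and leaving out each mouse.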

Additional observations from a re-analysis of the deposited data

Results flagged for a closer look

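HTR1D in βPrlR+/- mouse 2 was at 0.177 scaled TPM, apart from the other 3 βPrlR+/- mice at 0.0651 to 0.0786. The gap to the nearest mouse was 0.880 of the group's range, above Dixon's critical value at 95% for 4 samples. It was 1 of 31 groups of 4 that were tested, and chance marks about 1 in 20. The level is low, and HTR1D was not tested between the groups in limma.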

How the results depend on the processing

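Over 15 alternatives, HTR3A, SLC18A2 (14 of them, since a minimum mean TPM of 1 leaves it out), TPH2, DDC, MAOA and MAOB kept the direction of their difference, but not its size. Without 1 mouse the log2 fold change ranged from 0.16 to 0.38 for TPH2, 0.18 to 0.37 for DDC, -0.28 to -0.12 for SLC18A2, -0.17 to -0.06 for MAOA and 0.11 to 0.29 for MAOB. TPM as deposited gave 0.15, 0.11, -0.27, -0.25 and 0.06 in the same order. HTR3A ranged from -1.12 to -0.57 on the log2 scale, with limma adjusted p of 0.0975 to 0.514, and no alternative brought it past 0.05. TPH1 ranged from -0.41 to 0.95 when 1 mouse was left out. It reversed to -0.41 without Prlr+/- mouse 2. SLC18A1 was -0.17 with TPM as deposited, ranged from -0.12 to 0.03 without 1 mouse and reversed to 0.032 without βPrlR+/- mouse 2, 0.0067 without βPrlR+/- mouse 4 and 0.029 without Prlr+/- mouse 1. The correlation of TPH1 with TPH2 ranged from -0.38 to 0.70 without 1 mouse. It reversed to -0.11 without βPrlR+/- mouse 3, to -0.38 without Prlr+/- mouse 2 and to -0.014 with TPM as deposited. That of TPH1 with PRLR was positive in the 8 alternatives run, at 0.535 with TPM as deposited and at 0.555 to 0.815 without 1 mouse. The count of all genes at an adjusted p under 0.05, 10, became 18 and 17 with pseudocounts of 0.1 and 0.5, 4 with all genes above 0, and 2 to 12 without 1 mouse. At an unadjusted p under 0.05 it became 1177 with TPM as deposited, 1330 with all genes above 0 and 495 to 1082 without 1 mouse. Members at an unadjusted p under 0.05, 2, became 3 with TPM as deposited (SLC18A2, MAOA and HTR3A), 1 with upper-quartile scaling and 1 to 2 without 1 mouse. HTR3A was among them in all 15 alternatives and TPH2 in 8. TPH2 lost its unadjusted p under 0.05 with TPM as deposited, with upper-quartile scaling and in 5 of 7 fits without 1 mouse (βPrlR+/- mouse 1, 2 or 3 or Prlr+/- mouse 1 or 2), where DDC, SLC18A2 or MAOB passed in 1 fit each. The pathway genes under it, 3, became 1 to 5 (1 without βPrlR+/- mouse 2 or 4 or Prlr+/- mouse 3, and 5 without Prlr+/- mouse 2). TPM as deposited shifted the median of all genes to -0.12. Where a value moved, the cause was not tested. No paired analysis was possible because the labels give no pairing of mice between the groups. A correlation of HTR3A with the mean of the neuron markers is not given because the groups form separate clusters. The reads behind the values near 0.1 TPM cannot be recovered, and these genes were not tested in limma.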
